A study of Mus musculus with 12 samples.

Results

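Cytosolic ribosomal protein genes encode the proteins of the ribosomes that translate nuclear-encoded mRNA, with symbols that begin with Rpl for the large subunit and with Rps for the small subunit. They were taken from the deposited gene table by symbol, as every gene named Rpl or Rps with a number and at most a letter a, x or l and a further digit, together with Rplp0, Rplp1, Rplp2 and Rpsa, and without symbols marked -ps and the Rps6k kinases. Of 51826 entries, 88 met this rule, 52 of the large subunit and 36 of the small subunit. The GENCODE M21 annotation of GRCm38 gave 83 of them as protein coding and the other 5 (Rps4l, Rps12l1, Rpl6l, Rps3a2 and Rps3a3) as processed pseudogenes, which are intronless copies of an mRNA in the genome.

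The samples came from a mouse model of the heart disease of myotonic dystrophy, in which RNA with expanded CUG repeats is made in cardiomyocytes. CUG960 +dox mice were homozygous for TREDT960I, a tetracycline-responsive transgene that carries 960 interrupted repeats within human DMPK exons, and hemizygous for MHCrtTA, in which the α myosin heavy chain promoter drives, in cardiomyocytes, the tetracycline-controlled transactivator that switches the transgene on. MHCrtTA +dox controls were hemizygous for MHCrtTA and had no repeat transgene, so that both groups shared the transactivator and doxycycline (dox) chow from postnatal day 1. All 6 mice were FvB females of 10 weeks, 3 in each group, and the atria and the ventricles of each mouse were sequenced apart, giving 12 poly(A)-selected libraries in 4 groups. The controls carried the numbers V327, V333, V334, the repeat mice V119, V120, V123. The libraries were made from whole tissue, while only cardiomyocytes expressed the repeat RNA, and in such samples fewer cells of a type and less RNA per cell cannot be told apart.

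Each ribosome holds a single copy of most of these proteins, and cells make them in matched amounts from genes that are spread over the genome. Most of their mRNAs begin with a C followed by a run of pyrimidines, the terminal oligopyrimidine (TOP) tract, through which the growth kinase mTORC1 controls how strongly they are translated. Several of the proteins have paralogs that can take their place in the ribosome, and Rpl3l, the paralog of Rpl3, is known for its restriction to heart and skeletal muscle.

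The TOP tract was looked for at the gene starts that RefSeq gives on GRCm38.p6, since it is the sequence feature the family is known for. Of 63 members with a RefSeq start, 13 (20.6%) had a C at a start followed by at least 4 bases that were each C or T, against 3.01% of 27025 genes of all kinds. Those 13 were Rpl14, Rpl15, Rpl28, Rpl35, Rpl35a, Rpl38, Rplp2, Rps10, Rps15a, Rps18, Rps21, Rps27 and Rps6. When the same letters were allowed to begin within 10 bases of the start, a window chosen after the sequences were seen, 39 members (61.9%) held them, against 34.4% of all genes. The starts of 3 members with the tract are shown with those of 3 paralogs that lack it at the annotated base but are among the 39 with those letters near a start, as 40 bases before the start and 15 from it, 5′ to 3′ on the strand of the gene. For Rps27l and Rpl3l the first of 2 annotated starts is shown. Capitals mark the start base and, for the first 3, the run of C and T that follows.
Rps6, minus strand, chr4:86857353-86857407: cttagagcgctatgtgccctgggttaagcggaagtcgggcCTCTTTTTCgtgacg
Rps18, minus strand, chr17:33955651-33955705: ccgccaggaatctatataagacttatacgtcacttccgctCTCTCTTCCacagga
Rps27, minus strand, chr3:90213634-90213688: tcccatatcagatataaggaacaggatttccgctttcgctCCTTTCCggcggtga
Rps27l, plus strand, chr9:66946046-66946100: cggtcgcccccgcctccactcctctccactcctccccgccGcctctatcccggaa
Rpl22l1, plus strand, chr3:28805468-28805522: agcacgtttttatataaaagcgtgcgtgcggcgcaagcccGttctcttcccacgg
Rpl3l, plus strand, chr17:24727786-24727840: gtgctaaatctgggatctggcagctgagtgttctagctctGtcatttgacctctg

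The same promoters, from 250 bases before to 50 bases after a start, were searched on both strands for 3 further motifs. CCGGAAG, the core that ETS factors bind, was found in 26 members (41.3%) and in 9.93% of all genes. AAGATGGC, the core that YY1 binds, was found in 6 members (9.52%) and in 3.19% of all genes. TATAAA, the letters of a TATA box, was found in 7 members (11.1%) and in 15.7% of all genes. These are matches of letters in a window and were not tested for binding.

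Total counts lay between 116127966 and 160676189 per library, which leaves little counting error for all but the lowest members. In atria the totals were 136770774, 149950077 and 137556236 in controls and 120619011, 134863462 and 116127966 in CUG960 +dox mice, so the CUG960 libraries were the smaller ones. In ventricles they were 133480610, 129140369 and 130664289 in controls and 160676189, 152709789 and 140987828 in CUG960 +dox mice, so there the CUG960 libraries were the larger ones. Levels are given as CPM (counts scaled to a library of fixed size), by the TMM method over all 12 libraries.

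The 88 genes took about 2% of all counts, a larger share in atria than in ventricles. In atria the share was 2.13%, 2.10% and 2.06% in control mice V327, V333 and V334 and 2.47%, 2.16% and 1.98% in CUG960 +dox mice V119, V120 and V123. In ventricles it was 1.54%, 1.68% and 1.41% in the same controls and 1.64%, 1.74% and 1.66% in the same CUG960 +dox mice. The genotypes overlapped in each chamber, while every atrial library lay above every ventricular library. The group means were 2.09% ± 0.0364 (SD, n = 3) in control atria, 2.20% ± 0.250 in CUG960 atria, 1.54% ± 0.134 in control ventricles and 1.68% ± 0.0524 in CUG960 ventricles. Mitochondrially encoded transcripts took 11.99% ± 0.167 of counts in control atria and 20.2% ± 0.487 in control ventricles, and 11.5% ± 0.532 and 17.0% ± 1.55 in CUG960 +dox mice. After TMM scaling the summed level of the family was nearly the same in all groups, at 18384 ± 586 CPM in control atria, 18829 ± 1966 in CUG960 atria, 18538 ± 2064 in control ventricles and 18696 ± 582 in CUG960 ventricles.

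Within a group the members deviated together, and 4 libraries stood apart in this respect. Over the 70 protein-coding members above 100 CPM in control atria, the deviation of each gene from the mean of its group had a median of 0.15 on the log2 scale in the atria of V119, where 70 of 70 members lay above the mean, and of -0.15 in the atria of V123, where 0 of 70 did. In the control ventricles the median was 0.16 in V333, with 70 of 70 members above the mean, and -0.17 in V334, with 1 of 70. The other 1293 genes of that level had medians of -0.02, 0.01, -0.01 and 0.00 in these 4 libraries. TMM scaling centers the bulk of genes, so the shift of the members is one relative to other abundant mRNAs. In the remaining 8 libraries the medians of the members lay between -0.05 and 0.06. The number of family members called is therefore given below with and without each of these mice. The split of signs is given for some of them, and the range of the median at the end. Counts within a limit, intervals, overlaps, subunit medians and correlations are given with all mice only.

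**Figure D1:**
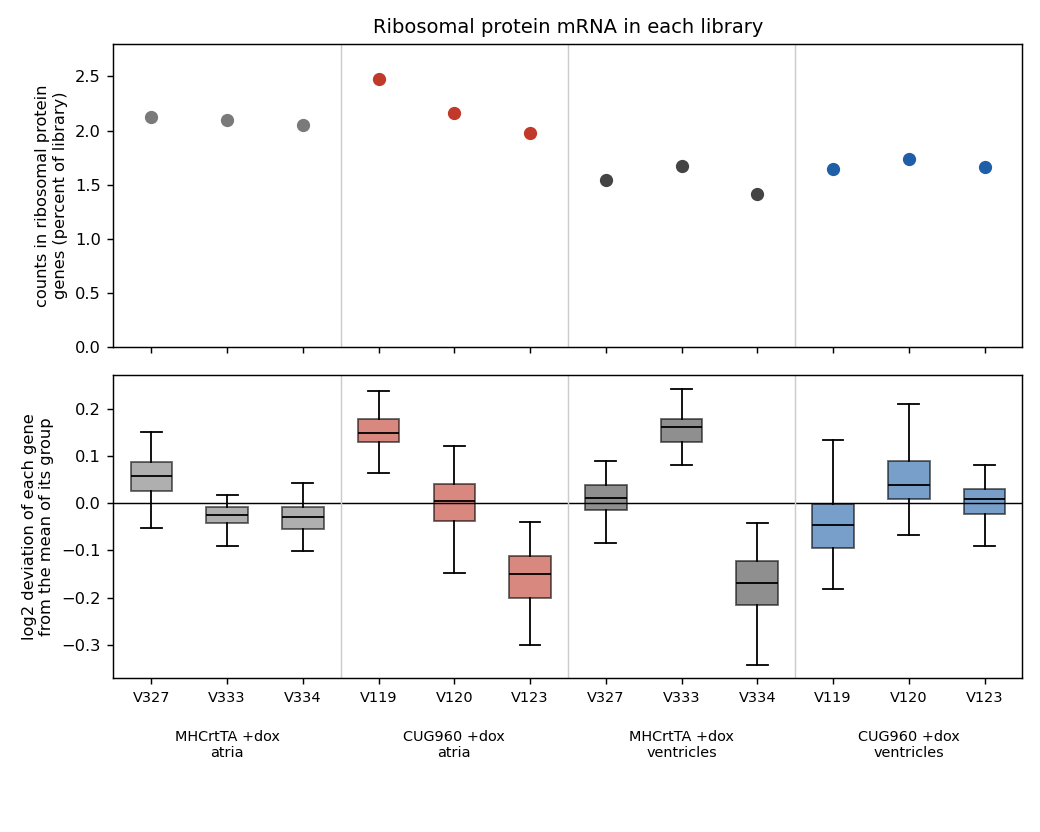
Percent of all counts in the 88 ribosomal protein genes in each library (top) and log2 deviation of each of 70 abundant protein-coding members from the mean of its group (bottom), where the box spans the quartiles, the line is the median, the whiskers reach the last gene within 1.5 times the box, and outlying genes are not drawn. The boxes of V119 and V123 atria and of V333 and V334 ventricles lie apart from 0, at medians of 0.15, -0.15, 0.16 and -0.17.

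Levels of different members are compared per kilobase of coding sequence, since untranslated ends are annotated unevenly. The counts come from whole transcripts, so this measure raises genes whose coding sequence is a small part of the transcript. Most members lay close together, with a median over the 83 protein-coding genes of 446 CPM per coding kilobase in control atria (quartiles 328 and 591) and 455 in control ventricles (quartiles 346 and 575). In CUG960 +dox mice the medians were 452 in atria and 451 in ventricles. By this measure the highest was Rpl41, the smallest protein of the ribosome, at 2309 CPM per coding kilobase in control atria and 2820 in control ventricles, followed by Rps29 at 1511 and 1882 and by the stalk protein Rplp1 at 1086 and 1001. Only 75 of the 582 transcript bases of Rpl41 are coding, and 168 of the 390 of Rps29. These ranks therefore depend on the length used. The low end held paralogs and genes with many copies. Rpl10l, an intronless testis paralog of Rpl10, had 1 count in 1 library (the ventricles of V120) and 0 in the other 11, and Rpl39l stood at 0.433 CPM per coding kilobase in control atria and 0.860 in control ventricles. Rpl29, whose mRNA matches 46 copies in the table, stood at 28.4 and 30.8, and only 14.8% of the counts of its family were on its own row.

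**Figure D2:**
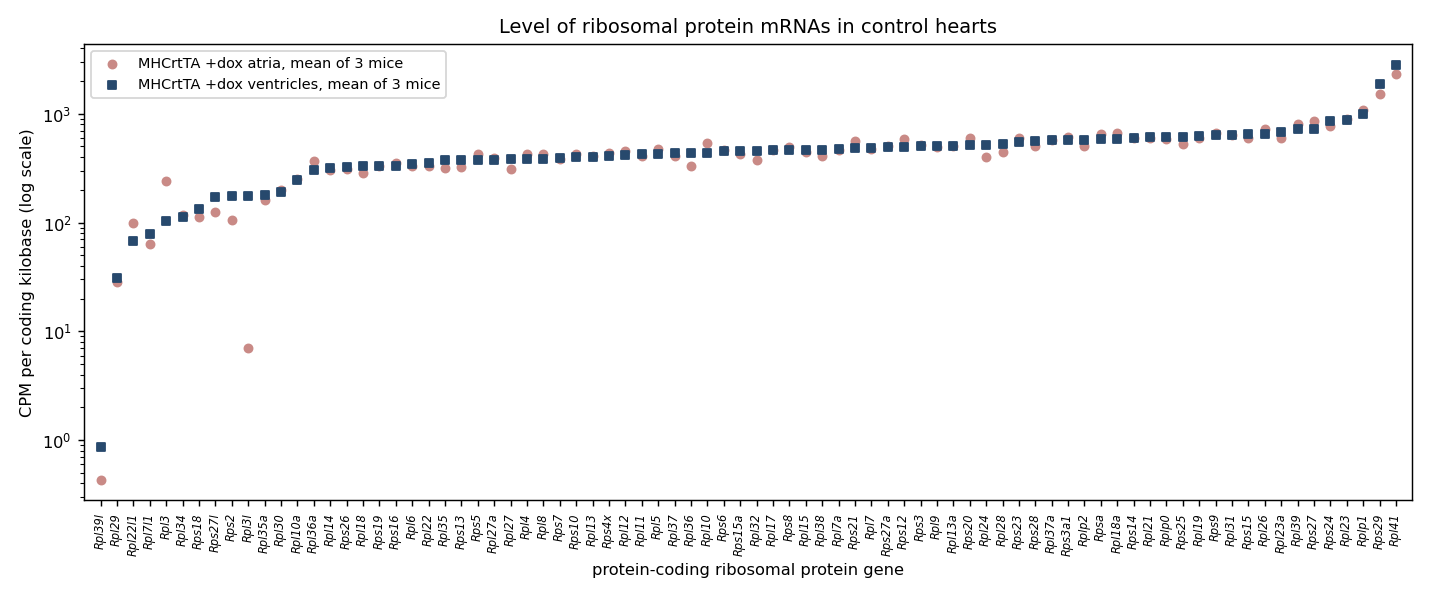
Mean level of the protein-coding ribosomal protein genes drawn, in CPM per coding kilobase (log axis) in MHCrtTA +dox atria and ventricles, 3 mice each, with Rpl10l left out. The quartiles are 328 and 591 in atria and 346 and 575 in ventricles, and Rpl3l is the gene whose symbols lie furthest apart, at 6.99 in atria and 176 in ventricles.

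In CPM not divided by length, which favors long mRNAs, the 5 most abundant members over the 4 groups were Rplp0 at 591, Rpsa at 534, Rpl4 at 517, Rps3a1 at 471 and Rpl7 at 400. The 5 least abundant were Rpl10l at 0.000604, Rps12l1 at 0.0921, Rpl39l at 0.0949, Rps3a3 at 0.159 and Rps3a2 at 0.854. The last 2 are copies of Rps3a1, which encodes a small subunit protein near the mRNA exit, 99.0% and 99.5% identical to it, and neither passed the test in any comparison with all mice in the fit. Between chambers, Rps3a2 passed in CUG960 +dox mice without V123 (log2 1.19, adjusted P = 0.0336) and Rps3a3 in controls without V334 (log2 -1.42, adjusted P = 0.0317).

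The question of the first comparison was whether ribosomal protein mRNA differed between CUG960 +dox and control atria. The groups came from separate matings, so the repeat RNA and other differences between the lines cannot be told apart. Of 87 members tested 2 (the pseudogene Rps4l and the large subunit gene Rpl22) were higher in CUG960 +dox atria. The other 85 did not pass an adjusted P value of 0.05 by edgeR's quasi-likelihood test. Of all 17650 genes tested 14.6% passed, 7.95% higher and 6.62% lower. With a fold change of at least 1.5 as a further condition, 1 member (Rps4l) passed, against 5.49% of all genes. The median log2 fold change of the members was 0.04 (quartiles -0.01 and 0.08), against -0.01 (quartiles -0.20 and 0.17) over all genes, and 61 members were above 0 and 26 below. That split rested on single mice, as 21 of 87 were above 0 without V119 and 75 of 87 without V123. So did the number of calls, which was 0 without V120, V327 or V333, 1 without V119 (Rpl22l1) or V334 (Rps4l), and 4 without V123 (Rpl22, Rpl31, Rps14 and Rps4l).

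With all mice in the fit, the members could be placed within narrow limits. In atria 61 of 82 protein-coding members lay within 0.1 log2 of no change and 78 within 0.2, the median standard error of the members was 0.09, and for 80 of the 82 the 95% confidence interval excluded a fold change of 1.5 in either direction. The 2 exceptions were Rpl22l1 and Rpl39l. With a mouse left out, the median of all members in atria lay between -0.04 and 0.11, and these counts are not given for those fits. Among the members that did not pass, values ran from -0.39 (Rpl22l1) to 0.20 (Rps14), leaving out pseudogenes. The groups did not overlap for 4 members (4.6%), Rps4l, Rpl22 and Rpl34 with all CUG960 libraries higher and Rpl3l with all lower, against 35.7% of all genes tested.

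In ventricles the picture was much the same, with 2 of 87 members past the threshold. Rps4l was higher and Rpl22l1, the paralog of Rpl22, was lower in CUG960 +dox ventricles, by the same test. Of 16909 genes 9.94% passed, 5.73% higher and 4.2% lower. Rps4l alone also had a fold change of at least 1.5, against 4.75% of all genes. The median log2 fold change was 0.02 (quartiles -0.04 and 0.06), against -0.01 over all genes, with 52 members above 0 and 35 below. This split too depended on single mice: 16 of 87 were above 0 without V334 and 75 without V333. The calls numbered 0 without V119 or V120, 1 (Rps4l) without V327 or V333, and 2 without V123 (Rps12l1 and Rps4l) or V334 (Rpl22l1 and Rps4l). Of 82 protein-coding members 66 lay within 0.1 log2 of no change and 78 within 0.2, and the interval excluded a fold change of 1.5 for 80, again all but Rpl22l1 and Rpl39l. These counts too are for all mice, and with a mouse left out the median of the members lay between -0.06 and 0.11. Groups did not overlap for 7 members (8.05%), against 31.2% of all genes. These were Rps4l, Rpl3 and Rpl22 on the higher side and Rpl22l1, Rpl21, Rpl3l and Rps12l1 on the lower side.

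The subunits had similar values. The median log2 fold change was 0.04 in atria and 0.03 in ventricles over 50 large subunit genes and 0.04 and 0.01 over 32 small subunit genes. None of the 32 protein-coding small subunit genes passed in either chamber, where 14.6% of all genes passed in atria and 9.94% in ventricles. By the same test, 0 of the 32 had an unadjusted P value under 0.05 in either chamber. Of all genes, 5337 of 17650 did in atria and 4342 of 16909 in ventricles. DESeq2, run in place of edgeR, added Rpl22l1 in atria (adjusted P = 0.0180) and Rpl3l in ventricles (adjusted P = 0.0248), both of the large subunit. Over all alternatives that kept every mouse, the adjusted P value of Rpl22l1 in atria lay between 0.0180 and 0.0856 and that of Rpl3l in ventricles between 0.0248 and 0.0764.

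**Figure D3:**
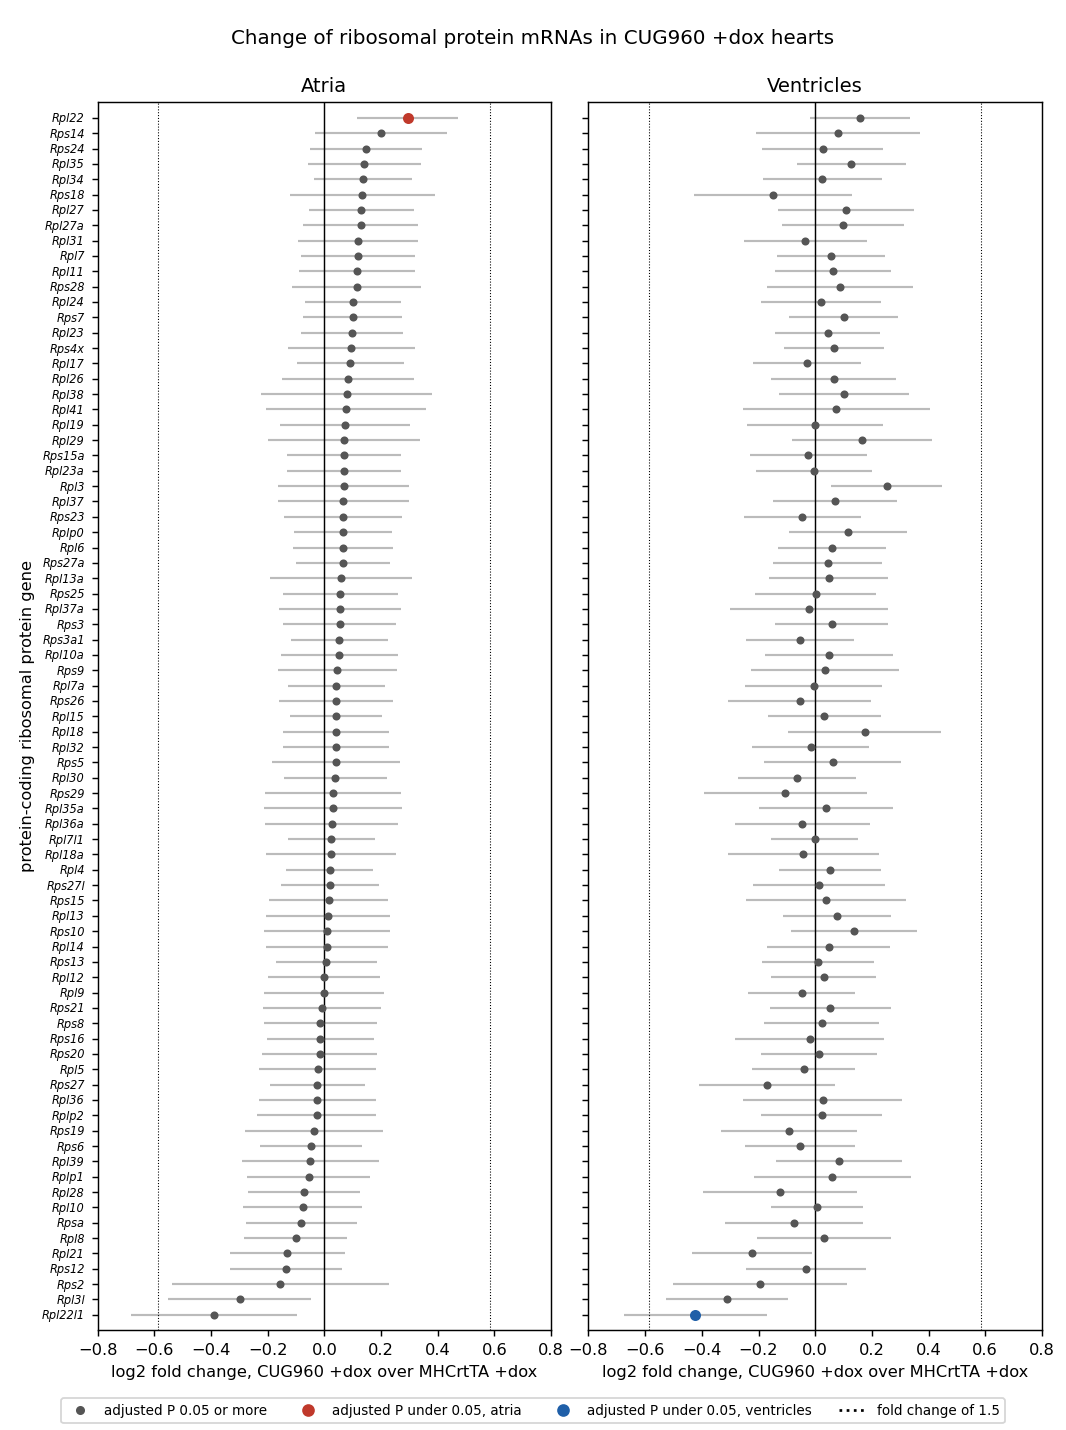
Log2 fold change of the protein-coding ribosomal protein genes drawn, in CUG960 +dox over MHCrtTA +dox atria (left) and ventricles (right), 3 mice against 3, with bars for the 95% confidence interval and dotted lines at a fold change of 1.5 (Rpl39l and Rpl10l are left out for their few counts). Nearly all bars cross 0, and the filled colored points are Rpl22 in atria at 0.29 and Rpl22l1 in ventricles at -0.42.

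Rpl4, which encodes a large subunit protein, was the reference gene of the RT-qPCR in the study. In atria it had 551, 538 and 528 CPM in controls and 581, 551 and 508 CPM in CUG960 +dox mice. In ventricles it had 486, 510 and 452 CPM in controls and 477, 517 and 505 CPM in CUG960 +dox mice. The genotypes overlapped in both chambers, while all control atria lay above all control ventricles (log2 0.15, adjusted P = 0.0933). The log2 fold change between genotypes was 0.02 (SE 0.07, 95% interval -0.13 to 0.17, adjusted P = 0.877) in atria and 0.05 (SE 0.08, -0.13 to 0.23, adjusted P = 0.735) in ventricles.

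The other most abundant members gave values of the same size. Rplp0, the core of the stalk to which the elongation factors dock, had a log2 fold change of 0.07 in atria and of 0.12 in ventricles. Rpsa, which is also known as the laminin receptor precursor, had -0.08 and -0.08. Rps3a1 had 0.05 and -0.05, and Rpl7 had 0.12 and 0.05. Rps14, which sits at the decoding platform and had the highest value of the coding members that did not pass in atria, had 0.20 (adjusted P = 0.23) and 0.08, and Rpl31, at the exit of the peptide tunnel, had 0.12 and -0.03. Both passed in atria when V123 was left out, Rps14 with an adjusted P of 0.0338 and Rpl31 with 0.0405. Over leaving out each of the 6 mice in turn, the log2 fold change in atria lay between 0.12 and 0.30 for Rps14 and between 0.05 and 0.22 for Rpl31.

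Rps4l, a transcribed processed pseudogene related to Rps4x (chromosome 6, 148354656 to 148355598, plus strand, GRCm38), was the member with the largest rise that passed in each chamber. In atria it had 5.11, 4.66 and 6.37 CPM in controls and 11.97, 9.38 and 7.37 CPM in CUG960 +dox mice. In ventricles it had 3.43, 5.27 and 5.83 CPM in controls and 11.6, 11.6 and 7.30 CPM in CUG960 +dox mice. All CUG960 libraries were above all controls of their chamber, V119 and V120 by more than V123. The means rose from 5.38 ± 0.887 to 9.57 ± 2.31 CPM in atria (1.78-fold, log2 0.83, SE 0.19, adjusted P = 0.0236) and from 4.84 ± 1.26 to 10.2 ± 2.48 CPM in ventricles (2.10-fold, log2 1.07, SE 0.23, adjusted P = 0.0189). With a mouse left out the adjusted P lay between 0.0141 and 0.0807 in atria, where V119, V120, V327 and V333 each ended the call, and between 0.0092 and 0.0757 in ventricles, where V119 and V120 did. The log2 value then stayed between 0.64 and 0.98 and between 0.88 and 1.26.

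Rps4x, the X-linked small subunit gene to which Rps4l is related, did not pass. It had 353, 339 and 335 CPM in control atria and 422, 323 and 353 CPM in CUG960 atria, and 318, 347 and 302 CPM in control ventricles and 328, 337 and 347 CPM in CUG960 ventricles. These groups overlapped, and the log2 fold changes were 0.10 (adjusted P = 0.557) and 0.07 (adjusted P = 0.653). The aligned bases of the pair are 79.9% identical, and Rps4l made up 1.2997% ± 0.234 of the per-kilobase level of the pair in control atria and 2.14% ± 0.363 in CUG960 atria, with 1.24% ± 0.348 and 2.47% ± 0.640 in ventricles. Rps4l has no annotated coding sequence, so its level was divided by its 943 transcript bases and that of Rps4x by 789 coding bases.

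Of the pair Rpl22 and Rpl22l1, Rpl22 was higher in CUG960 +dox atria and Rpl22l1 lower in CUG960 +dox ventricles, while neither passed in the other chamber. The pair is 74.6% identical over 299 aligned bases, and 60 aligned coding bases of each, on GRCm38, are given with the 20 bases at which they differ in capitals. They lie at coding positions 121 to 180 of Rpl22 and 106 to 165 of Rpl22l1, both genes are on the plus strand, and 99.9% of the counts of Rpl22 and its near-identical copies were on Rpl22.
Rpl22, chr4:152330007-152330066: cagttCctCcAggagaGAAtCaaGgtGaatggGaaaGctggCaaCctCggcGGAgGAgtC
Rpl22l1, chr3:28806740-28806799: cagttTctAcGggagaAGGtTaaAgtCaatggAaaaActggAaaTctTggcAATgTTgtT

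Rpl22, a large subunit protein that binds RNA outside the ribosome as well, was higher in CUG960 +dox atria. It had 133, 122 and 122.8 CPM in control atria and 169, 154 and 142 CPM in CUG960 atria. It had 132, 146 and 124 CPM in control ventricles and 149, 150 and 149 CPM in CUG960 ventricles. The groups did not overlap in either chamber, but the margin in ventricles was a few CPM. The means were 126 ± 6.29 and 155 ± 13.6 CPM in atria (1.23-fold, log2 0.29, SE 0.08, 95% interval 0.12 to 0.47, adjusted P = 0.0394) and 134 ± 11.2 and 150 ± 0.791 CPM in ventricles (log2 0.16, -0.02 to 0.33, adjusted P = 0.241). The atrial call held under all 9 alternatives that kept every mouse (adjusted P between 0.00563 and 0.0415), but only without V123 when a mouse was left out, the adjusted P lying at 0.105 without V119, 0.0951 without V120, 0.0542 without V327, 0.133 without V333 and 0.115 without V334.

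Rpl22l1 was lower in CUG960 +dox ventricles. It had 24.4, 27.7 and 21.8 CPM in control ventricles and 19.3, 16.4 and 19.3 CPM in CUG960 ventricles, where the groups did not overlap. It had 40.4, 36.9 and 32.3 CPM in control atria and 33.0, 23.7 and 27.0 CPM in CUG960 atria, where V119 lay above the lowest control. The means were 24.6 ± 2.93 and 18.3 ± 1.68 CPM in ventricles (log2 -0.42, SE 0.11, 95% interval -0.68 to -0.17, adjusted P = 0.0447) and 36.5 ± 4.08 and 27.9 ± 4.68 CPM in atria (log2 -0.39, SE 0.13, -0.68 to -0.10, adjusted P = 0.0805). The ventricular call was kept without V334 and lost without any of the other 5 mice, with adjusted P values of 0.0835 without V119, 0.128 without V120, 0.0765 without V123, 0.116 without V327 and 0.111 without V333, and the log2 value stayed between -0.50 and -0.33. In atria the value passed without V119 (log2 -0.53, adjusted P = 0.0347).

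The share of Rpl22l1 in the pair, per coding kilobase, separated the genotypes in each chamber. In atria it was 24.1%, 24.1% and 21.6% in controls and 17.0%, 13.9% and 16.7% in CUG960 +dox mice. In ventricles it was 16.3%, 16.5% and 15.6% in controls and 11.9%, 10.3% and 11.99% in CUG960 +dox mice. Every CUG960 library was below every control of the same chamber, and CUG960 atria overlapped with control ventricles. The summed level of the pair was 429 ± 26.2 CPM per coding kilobase in control atria and 479 ± 45.0 in CUG960 atria, and 417 ± 37.2 and 440 ± 2.72 in ventricles. These shares are a description and were not tested.

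**Figure D4:**
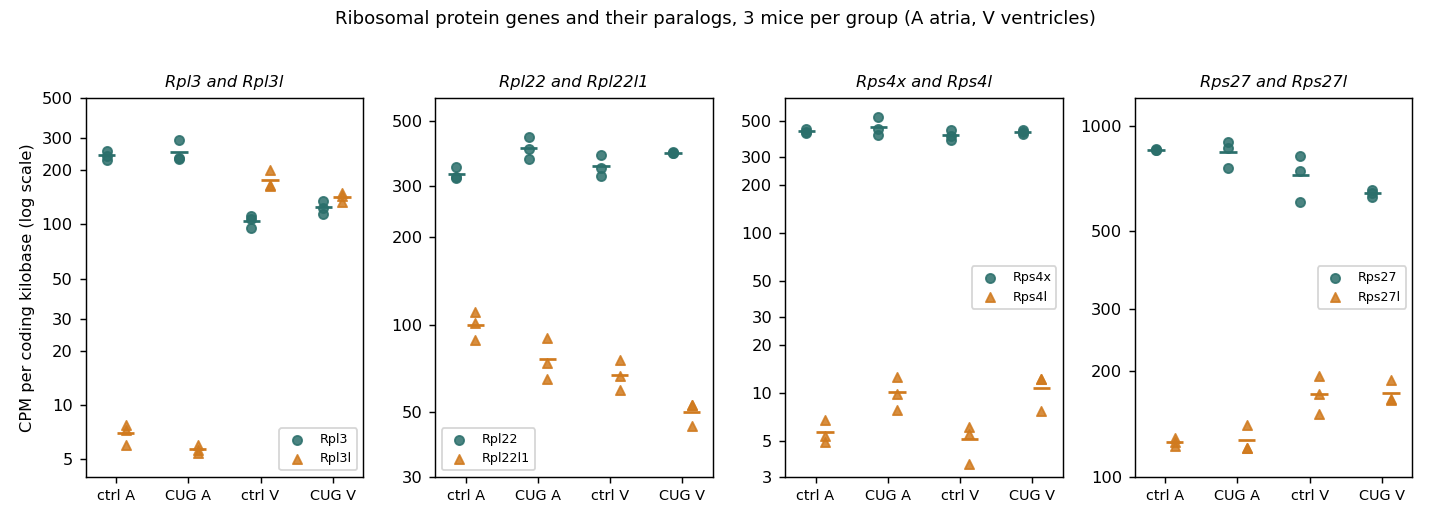
Level of 4 ribosomal protein genes (circles) and their paralogs (triangles) in CPM per coding kilobase (log axes that do not start at 0), with each mouse as a symbol and the mean as a line, in MHCrtTA +dox (ctrl) and CUG960 +dox (CUG) atria (A) and ventricles (V). Rps4l, a pseudogene with no annotated coding sequence, is given per kilobase of its whole transcript. Counts on the near-identical copies of Rpl3 are not included. Rpl3l lies far below Rpl3 in atria and near it in ventricles, from 2.84% of the pair as Rpl3l in control atria to 62.6% in control ventricles, and every CUG960 triangle of Rps4l lies above every control triangle of its chamber.

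Among the members that passed between chambers, Rpl3l and Rpl3 had the largest log2 fold changes in each genotype. Rpl3 encodes a protein that reaches close to the peptidyl transferase center, and the protein of Rpl3l can take its place in ribosomes of heart and skeletal muscle. The pair is 74.4% identical over 1189 aligned bases, and bases 301 to 360 of each coding sequence on GRCm38 are given with the 14 differing bases in capitals.
Rpl3, minus strand, chr15:80081620-80081679: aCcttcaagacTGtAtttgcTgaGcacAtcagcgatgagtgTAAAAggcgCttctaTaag
Rpl3l, plus strand, chr17:24730973-24731032: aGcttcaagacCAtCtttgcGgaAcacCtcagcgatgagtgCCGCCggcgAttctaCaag

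Rpl3l was an mRNA of the ventricles. It had 8.84, 7.34 and 9.41 CPM in control atria against 201, 244 and 199 CPM in the ventricles of the same mice. In CUG960 +dox mice it had 6.62, 7.29 and 6.90 CPM in atria against 181, 175 and 162 CPM in ventricles. The chambers lay far apart in all 6 mice, with a log2 fold change of atria over ventricles of -4.66 (SE 0.13, 25.2-fold lower in atria, adjusted P = 1.36e-07) in controls and of -4.65 (SE 0.08, 25.1-fold, adjusted P = 3.19e-09) in CUG960 +dox mice. Rpl3l was also lower in CUG960 +dox mice without overlap in both chambers, at means of 6.94 ± 0.334 against 8.53 ± 1.07 CPM in atria (log2 -0.30, SE 0.11, adjusted P = 0.109) and 173 ± 9.88 against 214 ± 25.6 CPM in ventricles (log2 -0.31, SE 0.10, adjusted P = 0.0747), but neither value passed.

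Rpl3 had the opposite pattern between chambers. It had 309, 289 and 273 CPM in control atria against 134, 129 and 116 CPM in control ventricles. It had 352, 278 and 283 CPM in CUG960 atria against 138, 150 and 162 CPM in CUG960 ventricles. It was 2.29-fold higher in atria of controls (log2 1.197, SE 0.08, adjusted P = 6.35e-06) and 2.01-fold higher in atria of CUG960 +dox mice (log2 1.01, SE 0.11, adjusted P = 5.28e-05). In ventricles all CUG960 libraries lay above all controls (150 ± 11.98 against 126 ± 9.33 CPM, log2 0.25, SE 0.09, 95% interval 0.05 to 0.45), without passing the test (adjusted P = 0.105), and in atria the log2 fold change was 0.07 (adjusted P = 0.697). Of the counts of Rpl3 and its near-identical copies, 70.1% were on Rpl3 itself, while Rpl3l had no such copy.

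Per coding kilobase, Rpl3l made up 2.75%, 2.45% and 3.31% of the pair in control atria and 59.7%, 65.2% and 62.9% in control ventricles. In CUG960 +dox mice it made up 1.83%, 2.53% and 2.36% in atria and 56.5%, 53.7% and 49.7% in ventricles. Every CUG960 ventricle was below every control ventricle in this share, at means of 53.3% ± 3.41 and 62.6% ± 2.77, while the atria overlapped. The summed level of the pair hardly differed between groups, at 247 ± 15.04 CPM per coding kilobase in control atria, 257 ± 34.1 in CUG960 atria, 280 ± 24.2 in control ventricles and 266 ± 2.27 in CUG960 ventricles. Counts on the near-identical copies of Rpl3 are in neither the shares nor the sums, and adding them to Rpl3 would lower the shares of Rpl3l. Rpl3 held 72.3% of the counts of its family in control ventricles and 71.3% in CUG960 ventricles.

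The comparison of the chambers within a genotype asked how far the family as a whole follows the difference between atrial and ventricular muscle. In controls 16 of 87 members tested passed the threshold, 4 higher and 12 lower in atria, against 55.7% of 17451 genes (28.3% higher and 27.5% lower). In CUG960 +dox mice 17 of 86 passed, 4 higher and 13 lower in atria, against 54.2% of 17559 genes (26.7% higher and 27.5% lower). Both shares of members were well under the background. The median log2 fold change of the members was -0.04 in controls and 0.00 in CUG960 +dox mice, against 0.03 and 0.01 over all genes. The number of calls depended on the mice in the fit, with 9 members in controls without V327, 14 without V333 and 19 without V334. In CUG960 +dox mice it was 21 without V119, 7 without V120 and 10 without V123.

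The 2 genotypes share no libraries, and 13 members passed in both, 81.25% of the calls in controls and 76.5% of those in CUG960 +dox mice. Of all genes 55.7% passed in controls and 54.2% in CUG960 +dox mice. The overlap of those calls is not given here, so the overlap of the members cannot be set against it. All 13 had the same direction in both. Those that passed in both genotypes whichever mouse was left out were Rpl3, Rpl3l, Rpl22l1, Rps2 and Rps27l. With the mouse as a replicate block, Rpl35 and Rps21 no longer passed in controls and Rpl28, Rps12 and Rps29 did, which left 17 members, and 17 passed in CUG960 +dox mice. Higher in atria were Rpl3 and Rpl22l1, and the 11 lower ones included Rpl24, Rpl27, Rpl32, Rpl35, Rpl36, Rpl3l, Rpl7l1, Rps13, Rps2 and Rps27l. In controls alone 3 passed, Rpl10 and Rps21 among them, and in CUG960 +dox mice alone 4 passed, Rpl18, Rpl36a, Rplp2 and Rps27, but none of these 7 passed the test of the difference between genotypes. Across 80 protein-coding members without Rpl3 and Rpl3l, the log2 fold changes of the 2 genotypes had a Pearson's r of 0.940 and a Spearman's rho of 0.893. These values describe genes that are not independent of each other, and none over all genes is given beside them.

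**Figure D5:**
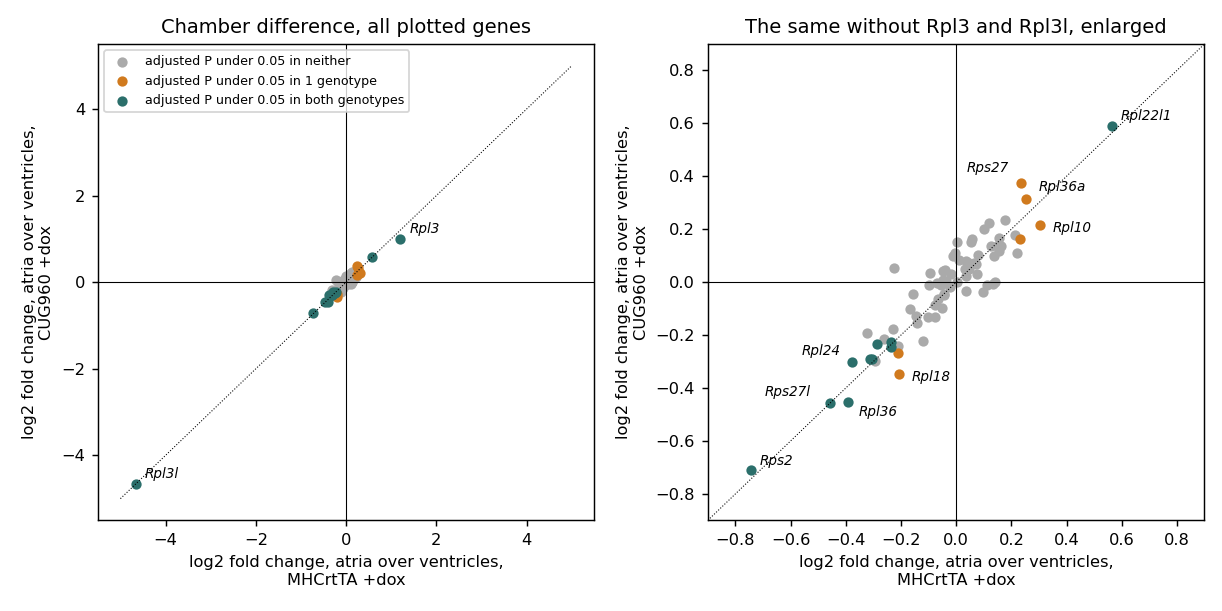
Log2 fold change of atria over ventricles for protein-coding ribosomal protein genes above 1 CPM in control atria, in MHCrtTA +dox mice (x axis) and CUG960 +dox mice (y axis), with all genes drawn on the left and without Rpl3 and Rpl3l, enlarged, on the right. The points lie along the dotted line of equal values, with Rpl3l at -4.66 and -4.65, Rps2 at -0.74 and -0.71 and Rpl22l1 at 0.56 and 0.59.

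Rpl22l1, the paralog described above, was higher in atria by a log2 value of 0.56 (SE 0.11, adjusted P = 0.00286) in controls and of 0.59 (SE 0.13, adjusted P = 0.00341) in CUG960 +dox mice. Rps27l, the paralog of the zinc finger protein Rps27, had the reverse direction. It had 32.4, 31.7 and 30.9 CPM in control atria against 43.4, 48.7 and 38.0 CPM in control ventricles, and 35.5, 30.3 and 30.4 against 41.9, 41.6 and 47.6 CPM in CUG960 +dox mice. The chambers did not overlap in either genotype, and the log2 fold changes of atria over ventricles were -0.46 (SE 0.09, adjusted P = 0.00323) and -0.46 (SE 0.09, adjusted P = 0.00221). Between genotypes Rps27l gave 0.02 in atria and 0.01 in ventricles.

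Rps27 itself lay on the other side of 0. It had 216, 216 and 215 CPM in control atria against 188, 207 and 153 CPM in control ventricles, and 227, 217 and 191 against 158, 166 and 162 CPM in CUG960 +dox mice. The atria lay above the ventricles without overlap in both genotypes, and the log2 fold change passed in CUG960 +dox mice (0.37, SE 0.08, adjusted P = 0.00306) and not in controls (0.23, adjusted P = 0.0903, or 0.0461 without V333). The interaction of chamber and genotype for Rps27 was 0.15 (adjusted P = 0.742). Rps27l made up 12.8% ± 0.263 of the pair per coding kilobase in control atria, 13.2% ± 0.792 in CUG960 atria, 19.2% ± 0.602 in control ventricles and 21.2% ± 1.34 in CUG960 ventricles.

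Of the remaining pairs, Rpl7l1, a relative of Rpl7 that is known from ribosome assembly, was lower in atria. It had 43.3, 48.6 and 47.8 CPM in control atria against 55.8, 60.3 and 56.6 CPM in control ventricles, and 49.0, 48.2 and 45.0 against 56.9, 58.2 and 57.3 CPM in CUG960 +dox mice. No atrial library reached a ventricular one, and the log2 fold changes were -0.31 (adjusted P = 0.00533) and -0.29 (adjusted P = 0.00414, or 0.052 without V123), whereas Rpl7 gave -0.05 and 0.01. The X-linked Rpl36a was higher in CUG960 atria than in CUG960 ventricles (118 ± 16.3 against 94.3 ± 2.26 CPM, log2 0.32, adjusted P = 0.022, or 0.136 without V119 and 0.136 without V120), with 0.25 (adjusted P = 0.0798, or 0.0188 without V333) in controls. Its autosomal paralog Rpl36al, outside the symbol rule, made up 37.6% of that pair in control atria and 45.6% in control ventricles, per coding kilobase. The X-linked Rpl10, which completes the peptidyl transferase region late in assembly, was higher in control atria (346 ± 16.0 against 280 ± 9.41 CPM, log2 0.30, adjusted P = 0.00429), with 0.22 (adjusted P = 0.0812) in CUG960 +dox mice. Rpl39 gave 0.14 and 0.00, and its germline paralog Rpl39l made up at most 0.162% of the pair in any library.

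Among the members that passed and had no paralog in the list, Rps2, a small subunit protein near the entry of the mRNA channel, had the largest difference. It had 108, 86.4 and 82.3 CPM in control atria against 153, 181 and 127 CPM in control ventricles, and 104, 66.4 and 77.2 against 150, 116 and 137 CPM in CUG960 +dox mice. The chambers did not overlap within a genotype, and the log2 fold changes were -0.74 (SE 0.14, adjusted P = 0.00254) and -0.71 (SE 0.16, adjusted P = 0.00456). Only 17.6% of the counts of the Rps2 family were on its own row, and with the counts of all 41 near-identical copies added the values were -0.47 (adjusted P = 0.00151) and -0.53 (adjusted P = 0.00196). Rpl24, at the bridge between subunits, stood at 189 ± 4.12 against 245 ± 29.0 CPM in control atria and ventricles (log2 -0.38, adjusted P = 0.00694), with -0.30 (adjusted P = 0.0105) in CUG960 +dox mice, and Rpl36 gave -0.39 (adjusted P = 0.0143) and -0.45 (adjusted P = 0.00754). Rpl24 no longer passed in controls without V327 and in CUG960 +dox mice without V120 or V123, and Rpl36 in controls without V333 and in CUG960 +dox mice without V120.

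Whether the change between genotypes differed between atria and ventricles was tested as the interaction of chamber and genotype over all 12 libraries, and no member passed. By edgeR's quasi-likelihood test 0 of 87 members passed, against 1.38% of 18327 genes, and DESeq2 gave 0 as well. At an unadjusted P value under 0.05 there was 1 member, the pseudogene Rps12l1, with an adjusted P of 0.391, against 2253 of 18327 genes. The median of the members was 0.02, and for 80 of 87 the 95% interval excluded a 1.5-fold difference between the chambers in the change between genotypes. The members above 0 numbered 58 of 87 with all mice, 20 without V119, 69 without V123, 14 without V333 and 71 without V334, with 0 calls by edgeR in each case. For Rps4l the interaction was -0.24 (adjusted P = 0.843), for Rpl22 it was 0.14 (adjusted P = 0.687) and for Rpl22l1 it was 0.03 (adjusted P = 0.966). Rps12l1, whose sequence is identical to the coding sequence of Rps12, had 3, 22 and 0 counts in control atria, 20, 0 and 27 in CUG960 atria, 26, 13 and 20 in control ventricles and 3, 0 and 8 in CUG960 ventricles, and which of these reads came from Rps12 is uncertain. Its log2 fold change in ventricles was -2.67 (adjusted P = 0.0546, or 0.0317 without V123).

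Ribosomal protein mRNAs have left many processed copies in the mouse genome, and RSEM divides reads that match several places among them. Of the 88 members, 82 matched at least 1 further row of the table with at least 90% identity over at least 80% of the coding sequence, and 803 such rows lay outside the family, 208 of them with 0 counts in all libraries. These rows held between 7.32% and 8.95% of the counts of members and copies together. For 9 protein-coding members less than 80% of the counts were on their own row: Rpl29, Rps2, Rps18, Rpl34, Rpl35a, Rpl30, Rpl21, Rpl3 and Rps7. Rps18, a protein of the head of the small subunit with 33.6% on its own row, gave between genotypes 0.13 on the log2 scale in atria and -0.15 in ventricles (adjusted P = 0.462 and 0.5). Of the copy rows, 3 of 166 tested passed in atria (1.81%) and 1 of 159 in ventricles (0.629%) between genotypes, and all 3 rows were copies of Rpl21. Of all genes, 14.6% passed in atria and 9.94% in ventricles.

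Rpl21, a large subunit protein, is nearly identical in sequence to the processed pseudogene Gm10163 (chromosome 9, 88390837 to 88391317, plus strand), a row named here after its values were seen. The 480 coding bases of Rpl21 differ from Gm10163 at 2 places, T336C and T432C, written as the base of Rpl21, its position from 1 at the first coding base and the base of Gm10163. The 60 bases around the first of them, at coding positions 306 to 365 on GRCm38, are shown with the differing base in capitals.
Rpl21, plus strand, chr5:146835627-146835686: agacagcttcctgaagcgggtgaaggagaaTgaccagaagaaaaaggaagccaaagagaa
Gm10163, plus strand, chr9:88391142-88391201: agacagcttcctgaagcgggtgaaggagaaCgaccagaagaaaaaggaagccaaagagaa

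Rpl21 had 311, 281 and 272 CPM in control atria and 290, 262 and 236 CPM in CUG960 atria, which overlapped. It had 294, 332 and 259 CPM in control ventricles and 249, 251 and 257 CPM in CUG960 ventricles, all of them below the controls. The log2 fold changes were -0.13 (adjusted P = 0.366) and -0.22 (SE 0.09, adjusted P = 0.174). Gm10163 had 98, 101 and 112 counts in control atria and 10267, 10840 and 7333 in CUG960 atria, and 78, 75 and 68 against 8571, 7685 and 9048 in ventricles. Rpl21 held 67.2% of the counts of its family in control atria and 54.1% in CUG960 atria, with 57.2% and 48.4% in ventricles. With the counts of all 64 copies added to it, an alternative chosen after seeing the data, its log2 fold change was 0.18 (adjusted P = 0.169) in atria and 0.02 (adjusted P = 0.906) in ventricles, so the sign of the Rpl21 value depended on how the copies were counted.

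The rest of the translation machinery is given by lists written from general knowledge. Of 5 ribosomal proteins under other symbols, Fau, Rack1, Rpl36al and Rps27rt among them, 0 passed between genotypes in either chamber, where 14.6% and 9.94% of all genes did, and their medians were 0.02 and -0.08. Of 49 translation factors, 1 passed in each chamber, the initiation factor relative Eif4g2, which fell from 1030 ± 40.4 to 870 ± 50.3 CPM in atria (log2 -0.24, adjusted P = 0.0449) and from 1210 ± 45.0 to 973 ± 58.6 CPM in ventricles (log2 -0.31, adjusted P = 0.0453). Of 53 ribosome biogenesis genes, 4 rose in atria (Ncl, Fbl, Tsr1 and Efl1) and 5 in ventricles (Nhp2, Tsr1, Noc4l, Efl1 and Polr1e), with medians of 0.07 and 0.08, where 7.95% and 5.73% of all genes passed on the higher side. Ncl encodes nucleolin and Polr1e a subunit of RNA polymerase I, and none of these reached a fold change of 1.5. Of 14 ribosome quality control genes, Hbs1l rose in both chambers (log2 0.26, adjusted P = 0.0168, and 0.30, adjusted P = 0.0213) and Ascc2 in ventricles (0.34, adjusted P = 0.0208).

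Among 36 genes of mTORC1 and growth control of translation, 5 rose and 0 fell in each chamber, where 7.95% of all genes rose and 6.62% fell in atria and 5.73% and 4.2% in ventricles. In atria they were Rps6kb1, Eif4ebp1, Max, Rragd and Lamtor5, and in ventricles Eif4ebp1, Sesn2, Rragd, Eef2k and Pdcd4. Eif4ebp1, which encodes a repressor of cap-dependent initiation that mTORC1 inactivates, had 51.3, 47.7 and 48.2 CPM in control atria and 72.7, 76.7 and 65.4 CPM in CUG960 atria, and 49.7, 55.5 and 49.5 against 72.4, 91.5 and 75.3 CPM in ventricles. No CUG960 library overlapped with a control of its chamber, and the log2 fold changes were 0.54 (SE 0.07, adjusted P = 0.0028) and 0.63 (SE 0.10, adjusted P = 0.00547). Rragd, a Rag GTPase that brings mTORC1 to the lysosome, rose from 108 ± 8.30 to 170 ± 22.8 CPM in atria (log2 0.65, adjusted P = 0.00561) and from 182 ± 12.7 to 263 ± 23.4 CPM in ventricles (log2 0.53, adjusted P = 0.0079). Sesn2, a stress-induced inhibitor of mTORC1, rose in ventricles from 4.90 ± 0.106 to 8.10 ± 0.974 CPM (log2 0.72, SE 0.12, adjusted P = 0.00561) and gave 0.20 (adjusted P = 0.301) in atria, where the interaction did not pass (-0.53, adjusted P = 0.181). Members that rose include both activators and inhibitors of the pathway.

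Between chambers the other lists are set beside the shares of all genes, which were 28.3% higher and 27.5% lower in control atria and 26.7% and 27.5% in CUG960 +dox mice. Of 81 mitochondrial ribosomal protein genes tested, 78 were lower and 1 higher in control atria than in control ventricles (median log2 -0.83), and 75 were lower and 1 higher in CUG960 +dox mice (median -0.68). Between genotypes 4 of the 81 rose and 1 fell in atria, where 14.6% of all genes passed, and 2 rose and 3 fell in ventricles, where 9.94% did. Of the 49 translation factors, 28 were lower and 4 higher in control atria (median -0.24), and 24 and 4 in CUG960 +dox mice (median -0.21). The elongation factor Eef1a1 was the opposite of most of them, at 2689 ± 55.4 CPM in control atria against 891 ± 19.0 in control ventricles (log2 1.59, adjusted P = 8.05e-07). Of the ribosome biogenesis genes 23 of 53 were lower and 2 higher in control atria, and 28 and 0 in CUG960 +dox mice. Of the mTORC1 genes 19 of 36 were lower and 2 higher in control atria, and 20 and 4 in CUG960 +dox mice. Of the quality control genes 6 of 14 were lower and 1 higher in control atria and 5 and 2 in CUG960 +dox mice.

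Marker genes of other cell types moved with the groups, and their part in the results above was not tested. Cardiomyocyte markers, led by Myh6, summed to 44425 ± 678 CPM in control atria, 47029 ± 1153 in CUG960 atria, 63541 ± 2658 in control ventricles and 65994 ± 1860 in CUG960 ventricles, and of its 9 genes 2 rose and 1 fell in CUG960 +dox atria and 1 fell in CUG960 +dox ventricles, where 14.6% and 9.94% of all genes passed. Those that rose were Myh6 (log2 0.22, adjusted P = 0.0393) and Pln (log2 0.52, adjusted P = 0.017), and Ryr2 fell in both chambers (log2 -0.53, adjusted P = 0.0298, and -0.67, adjusted P = 0.0148). Endothelial markers, led by Pecam1, were lower in CUG960 +dox hearts, with 4 of 7 genes lower in atria, where 6.62% of all genes were (sums of 719, 744 and 616 CPM in controls and 486, 549 and 495 in CUG960 +dox mice) and 3 of 7 in ventricles, where 4.2% of all genes were (926, 786 and 855 against 642, 620 and 672). Pecam1 fell from 234 ± 13.8 to 144 ± 21.2 CPM in atria and from 180 ± 6.92 to 124 ± 0.828 CPM in ventricles. No gene of the marker lists was at 0 in all libraries. Between chambers, fibroblast markers led by Dcn (2408 ± 205 CPM in control atria and 1367 ± 114 in control ventricles), leukocyte markers led by Lyz2 (417 ± 191 and 146 ± 15.5) and mesothelial markers led by Upk3b (228 ± 9.89 and 7.05 ± 0.486) were higher in atria. Lower in control atria were the sums of smooth muscle markers (325 ± 62.6 and 708 ± 24.8) and endothelial markers (693 ± 67.9 and 856 ± 70.3). Single genes of these lists went both ways. Of 5 smooth muscle genes 3 passed as lower and 2 as higher in control atria, and of 7 endothelial genes 4 and 2. Of all genes 27.5% were lower there and 28.3% higher. The mean of Pecam1 was higher in control atria than in control ventricles (234 against 180 CPM). Erythroid markers led by Hbb-bs summed to 2767 CPM in the atria of V334 against 514 and 323 in the other control atria. In CUG960 +dox mice the erythroid sum was 372 ± 60.8 CPM in atria and 1616 ± 508 in ventricles.

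The remaining marker lists held few counts or few calls. Of 5 smooth muscle markers, led by Rgs5, 1 rose in CUG960 +dox atria (Tagln) and 3 fell in CUG960 +dox ventricles, against 7.95% and 4.2% of all genes. Of the lists for leukocytes, erythroid cells and mesothelial cells, 0 genes passed between genotypes in either chamber by edgeR's quasi-likelihood test. Of all genes, 14.6% passed in atria and 9.94% in ventricles. Among 7 fibroblast markers 2 fell in atria, against 6.62% of all genes. Adipocyte markers led by Adipoq summed to 3.99, 13.6 and 3.69 CPM in control atria and 1.66, 5.05 and 3.17 CPM in CUG960 atria, which overlapped, with V333 apart from the other controls and 0 of 4 genes called by edgeR. In ventricles they summed to 4.69, 3.36 and 4.90 against 1.12, 0.572 and 2.60 CPM, and Plin1 fell (log2 -1.86, adjusted P = 0.0091). Skeletal muscle markers led by Mybpc2 summed to 18.1 ± 2.11 and 5.11 ± 1.21 CPM in control and CUG960 atria and to 71.9 ± 5.15 and 15.3 ± 3.06 in ventricles, and Mybpc2, a fast-twitch myosin binding protein, fell by 2.01 and 2.24 on the log2 scale. The part of these genes in the values of the ribosomal protein genes was not tested.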

How the data were processed

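RNA-Seq of poly(A)-selected, stranded libraries from the atria and ventricles of 6 mice was deposited as a single table. Per the submitters' processing notes the authors used GRCm38 (mm10), RSEM 1.3.1, which gives expected counts per gene and shares reads that match several genes among them, and DESeq2. The deposited expected counts were whole numbers and were used as they are. All columns matched a sample (0 without one).

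Each comparison was fitted on its own libraries with edgeR 4.0.16 in R 4.3.3 (TMM factors, filterByExpr, quasi-likelihood test), with Benjamini-Hochberg adjustment over all genes tested and a threshold of 0.05. The fit was also run on simulated data, and the outcome is not reported here. CPM used TMM factors over all 12 libraries, and deviations within a group were taken on log2(CPM + 0.5). Alternatives were DESeq2 1.42.0, other filters and scalings, all 12 libraries in a single fit, the mouse as a replicate block, near-identical copies added, and each mouse left out. The atria and ventricles of a mouse pair by the labels, and their deviations from group means correlated with r of 0.0470 to 0.284 across genes.

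The members and lists were chosen with earlier results of these data known. Named members were paralog pairs, Rpl4, Rpl21, the 5 with the smallest P value in each comparison, the 5 highest and 5 lowest, and all calls with a fold change of 1.5, and list genes were those called with that fold. Members outside this rule, Gm10163 and list genes with smaller changes were picked once their values were known. The rule also named Vxn as a gene sharing sequence with Rpl21, for which no match was found, so Gm10163 was used. Copies were found by matching coding sequences to GENCODE M21 transcripts. The values of a few genes are not reported here, and these genes are left out of the plots that show single genes.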

Additional observations from a re-analysis of the deposited data

Results flagged for a closer look

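Tagln, a smooth muscle marker outside the ribosomal protein family, had an effect of the repeat RNA that differed between the chambers by the test of the interaction (1.85 on the log2 scale, SE 0.40, adjusted P = 0.0445 by edgeR's quasi-likelihood test). It rose from 22.5 ± 8.55 to 52.0 ± 19.6 CPM in atria (log2 1.21, SE 0.31, adjusted P = 0.0364) and fell from 39.2 ± 8.06 to 25.3 ± 4.68 CPM in ventricles (log2 -0.63, SE 0.17, adjusted P = 0.0426), with 3 mice in each group.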

How the results depend on the processing

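Over leaving out each mouse in turn, the number of members called lay between 0 and 4 in atria (0 to 1 with a fold change of 1.5), 0 and 2 in ventricles (0 to 2 with that fold), 9 and 19 between the chambers of controls and 7 and 21 between those of CUG960 +dox mice. Their median log2 fold change lay between -0.04 and 0.11, -0.06 and 0.11, -0.10 and 0.07 and -0.11 and 0.08 in the same order, and between -0.09 and 0.09 for the interaction. Without a filter on low counts 4 members were called in ventricles (Rpl22l1, Rpl3l, Rps12l1 and Rps4l), 2 of them with a fold change of 1.5, and the cause was not tested. The other alternatives gave 2 to 3 calls in atria, 2 to 3 in ventricles, and 15 to 19 between chambers in each genotype, and no called log2 fold change of a named member changed sign under any alternative. Among values that were not called, that of Rpl21 changed sign when the counts of all near-identical copies were added, from -0.13 to 0.18 in atria and from -0.22 to 0.02 in ventricles. Leaving out a mouse also turned the sign of small values that were not called, in atria without V119 those of Rpl3 (0.07 to -0.05), Rps4x (0.10 to -0.02), Rps3a1 (0.05 to -0.02) and Rps27l (0.02 to -0.06) among others. With the mouse as a replicate block 17 members were called in controls and 17 in CUG960 +dox mice, and 0 for the interaction. Over all genes, DESeq2 called 3555 in atria where edgeR called 2573. Leaving out mitochondrially encoded genes moved the share of counts in the family to 2.38% in control atria, 2.49% in CUG960 atria, 1.93% in control ventricles and 2.03% in CUG960 ventricles, and adding the rows marked -ps moved it to 2.18% in control atria and 1.76% in CUG960 ventricles. Depth limits the lowest members (Rpl10l, Rps12l1, Rpl39l and Rps3a3), and the number of mice and the division of reads among copies limit others.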
